A study of Macaca mulatta with 2 samples.

Results

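The genes described here are 9 members of the Notch pathway: the receptors NOTCH1 and NOTCH3, the ligands JAG1 and DLL4, and the transcriptional repressors HES1, HES4, HES6, HEY1 and HEYL. They were chosen by name from the 24037 features that both count matrices list, and each name matched 1 feature (NOTCH1 ENSMMUG00000017022, NOTCH3 ENSMMUG00000013637, JAG1 ENSMMUG00000018116, DLL4 ENSMMUG00000014541, HES1 ENSMMUG00000039446, HES4 ENSMMUG00000001817, HES6 ENSMMUG00000039992, HEY1 ENSMMUG00000002740, HEYL ENSMMUG00000018861). Notch receptors are membrane proteins that are cut when a ligand on a neighbouring cell pulls on them. The freed intracellular part enters the nucleus, joins the DNA-binding protein RBPJ, and switches on genes of the HES and HEY families. In vessels, DLL4 and NOTCH1 are known for their part in endothelial sprouting and arterial identity, and JAG1 and NOTCH3 for the contact between endothelium and the mural cells (pericytes and smooth muscle) around it. HES1 is also induced by many other signals, and HES6 differs from its relatives in that it can act against HES1.

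The tissue was the trabecular meshwork of rhesus macaques, the filter at the front of the eye through which aqueous humour drains. Cells were freed with collagenase and profiled as droplets in 1 library labelled glaucoma, from monkeys with spontaneous primary open-angle glaucoma, and 1 labelled normal. The labels used here tie no library to a number of animals or eyes, an age or a sex, and name no agent. Their genotype field holds only the words glaucoma and normal, with no allele. With 1 library in each group there was no replicate and no test, and an effect of glaucoma cannot be told apart from one of the animals, of the dissection or of the library preparation.

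After filtering, 8301 glaucoma and 5364 normal cells were kept (29774877 and 21557258 unique molecular identifiers, UMIs), at medians of 2745 and 2699 UMIs, and the libraries shared 17 barcodes. Cells fell into 29 clusters, and a class is called "like" a cell type because marker genes named it. There were 9 classes with at least 50 cells in each library, and these were compared. Pericyte-like cells held 8 of 8 pericyte markers in both libraries (10403 and 10181 CPM in sum), with vascular endothelium markers at 542 and 471 CPM. Wherever a pair of values is given below, the glaucoma value comes first and the normal value second. Levels are in CPM, the UMIs of a gene per 1000000 UMIs of the class, and brackets hold exact 95% intervals that cover counting error only. Levels of different genes were not scaled by length and are not compared with each other. Droplets also hold free RNA, so T or NK cell-like cells, with median depths of 1348 and 1744 UMIs, were taken as a background class. This choice is an assumption, as expression by the T or NK cell-like cells themselves cannot be told from free RNA. Of these cells 3.13% and 1.77% held a HES1 UMI, and 1.25% and 0% a JAG1 UMI, where 0 of 113 cells allows a share of up to 2.65%.

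Among the receptors, NOTCH3 was highest in mural cells and NOTCH1 in endothelium, both at few UMIs. NOTCH3 stood at 39.8 CPM [27.1, 56.6] and 63.2 CPM [47.1, 83.1] in pericyte-like cells (31 and 51 UMIs). These intervals lay above those of every other class, except for the 16 melanocyte-like and 12 surface epithelium-like normal cells, in which 0 and 1 UMIs were counted. Muscle-like cells, pooled as a class, followed at 8.71 and 9.90 CPM, and T or NK cell-like cells held no NOTCH3 UMI. The muscle-like cluster led by RERGL, described below, was closer, at 27.8 and 38.6 CPM. Pericyte-like cells over that cluster gave 1.43-fold [0.83, 2.49] and 1.64-fold [1.08, 2.48]. Vascular endothelium-like cells had NOTCH1 at 16.3 CPM [10.8, 23.5] and 71.3 CPM [50.9, 97.1] (28 and 40 UMIs). Non-myelinating Schwann cell-like cells came next, at 14.3 CPM [7.82, 24.0] and 29.9 CPM [19.5, 43.7], and in the glaucoma library these classes overlapped. The vascular NOTCH1 intervals did not overlap between the libraries, and the log2 ratio of glaucoma over normal was -2.13 [-2.88, -1.40], but the UMIs of both libraries together were below the 100 set for a call. A NOTCH1 UMI was found in 4.58% and 12.2% of vascular cells, at median depths of 2208 and 1511 UMIs. Once thinned to 1000 UMIs, 1.59% and 6.48% of the 566 and 216 vascular cells with at least that depth held 1. Shallower cells are left out of every thinned value in this report. In T or NK cell-like cells those shares were 0.31% and 0% before thinning.

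The ligands were placed differently along the vessel wall. DLL4 was an endothelial gene, with 301.01 CPM [276, 328] and 344 CPM [297, 396] in vascular endothelium-like cells, 83.0 CPM in lymphatic-type endothelium-like glaucoma cells, and 5.14 CPM or less in each of the other compared classes. The lymphatic-type class was named from 3 lymphatic markers although 7 vascular markers also counted in it. It had 550 and 33 cells, so its normal level (44.8 CPM, 4 UMIs) was imprecise and it was not compared between libraries. JAG1 was high in both layers of the wall, with 558 CPM [507, 613] and 835 CPM [773.6, 901] in pericyte-like cells. Among whole classes vascular endothelium-like cells ranked second, at 443 CPM [412, 476] and 701 CPM [633, 773.4], so the normal intervals of these classes almost touched. The muscle-like cluster led by RERGL was at the pericyte-like level, with 569.9 and 864 CPM. Non-myelinating Schwann cell-like cells held 134 and 250.3 CPM of JAG1 and stromal fibroblast-like cells 131 and 191 CPM. Trabecular meshwork-like cells were lower, at 50.1 and 66.6 CPM, and macrophage-like cells were at 7.21 and 17.1 CPM.

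The repressors were spread over more classes. HES1 was highest in pericyte-like cells, at 788 CPM [727, 853] and 1021 CPM [953, 1094]. Its interval there overlapped that of vascular endothelium-like cells in the glaucoma library (764 CPM) and of trabecular meshwork-like cells in the normal library (961 CPM). HES1 was low in macrophage-like cells, at 65.6 and 39.9 CPM, and in T or NK cell-like cells, at 33.9 and 9.37 CPM. Among whole classes HES4 was highest in pericyte-like cells, at 396 CPM [353, 443] and 262 CPM [227, 299], apart from every class below. The muscle-like cluster led by RERGL was at a similar level, with 395 and 274 CPM. Muscle-like cells had 134 and 74.7 CPM of HES4, and vascular endothelium-like cells 48.2 and 80.2 CPM, so muscle came second in the glaucoma library while both classes overlapped in the normal one. HEY1 was highest in vascular endothelium-like cells (75.5 and 67.7 CPM), and the intervals overlapped those of myelinating Schwann cell-like cells (54.4 and 48.6 CPM). HES6 was found in muscle-like cells, at 30.7 and 29.9 CPM, and in macrophage-like cells of the glaucoma library. HEYL gave 28 and 31 UMIs over all deposited barcodes, of which 7 and 3 lay in kept pericyte-like cells, and is too sparse to describe further.

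**Figure D1:**
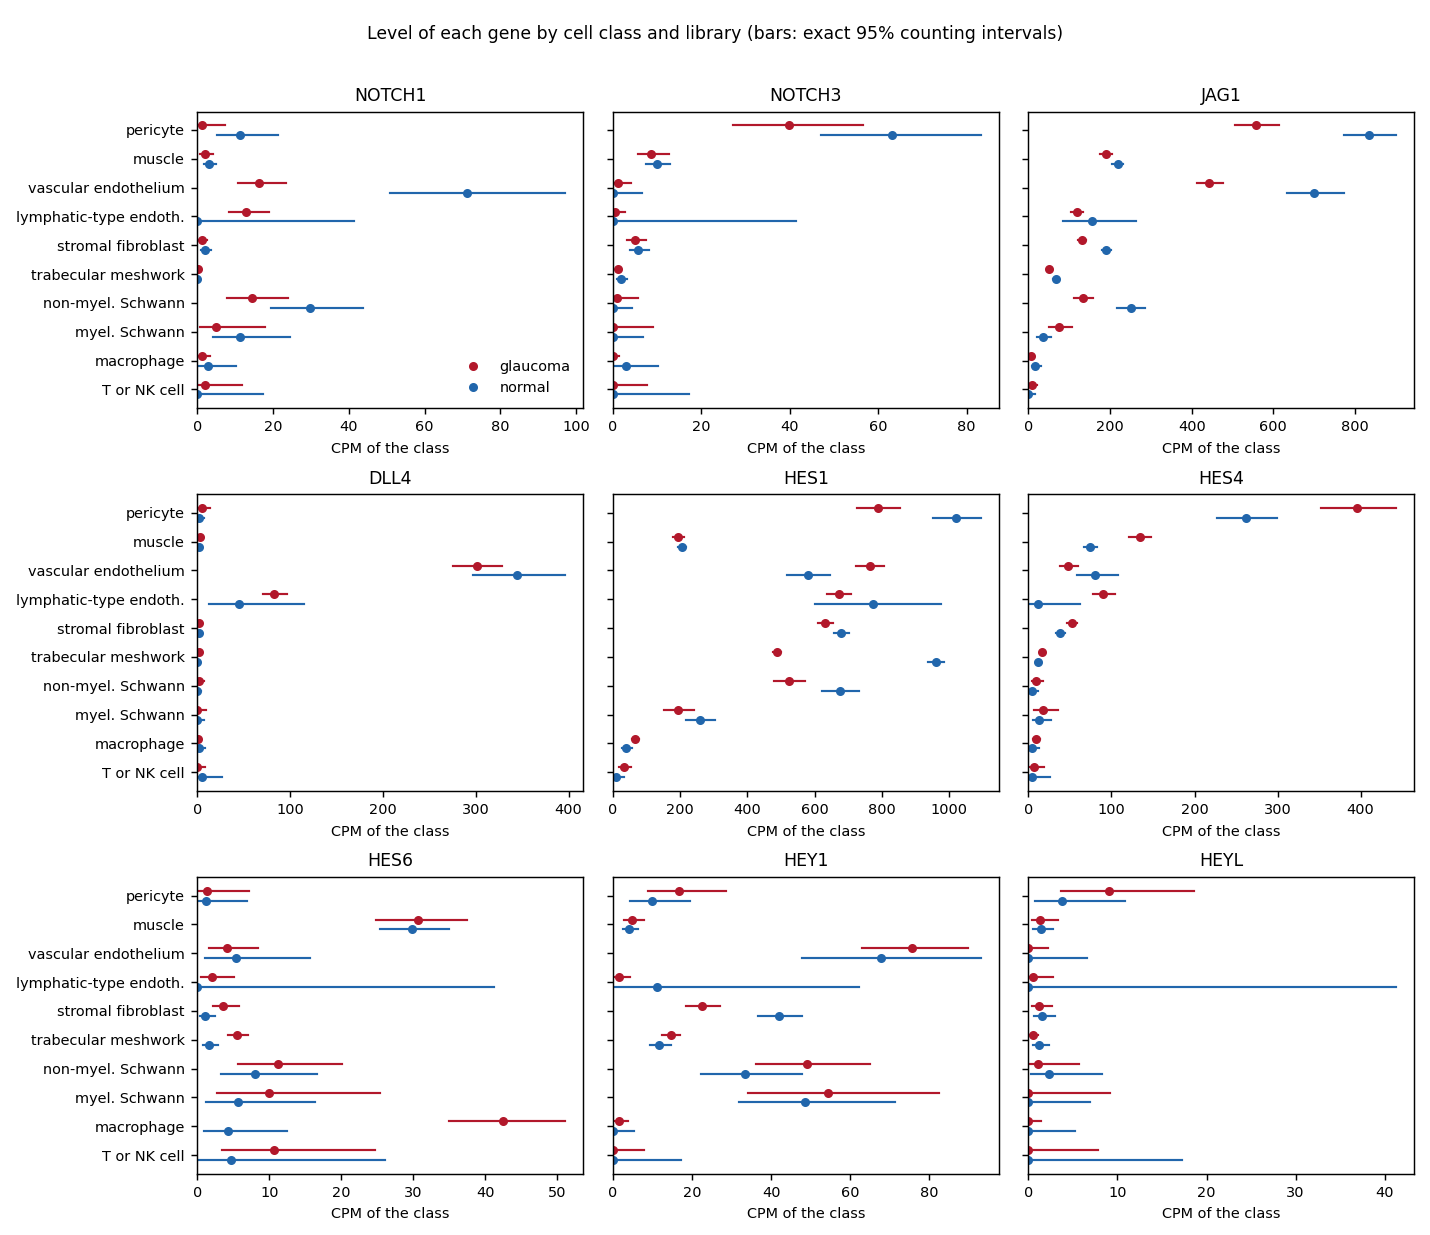
Level of each of the 9 genes (x axis, CPM of the class) by cell class (y axis) in the glaucoma (red) and the normal library (blue), with exact 95% counting intervals as bars. With muscle-like cells pooled, NOTCH3 and HES4 peak in pericyte-like cells, and DLL4 in vascular endothelium-like cells at 301.01 and 344 CPM. HES6 in macrophage-like cells stands at 42.5 CPM in glaucoma against 4.27 CPM in normal cells.

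The muscle-like class was divided into 2 parts that had different Notch profiles. Cluster 6 (364 and 402 cells) was led by RERGL, known from vascular smooth muscle, and clusters 3 and 23 (332 and 645 cells) were not. This split was chosen after the clusters had been seen, and the pathway genes took no part in the clustering. JAG1 was at 569.9 and 864 CPM in the RERGL cluster against 16.9 and 13.3 CPM in the other muscle-like cells, a fold of 33.7 [24.05, 48.6] and 65.0 [49.2, 87.6]. HES4 was at 395 and 274 CPM against 15.5 and 11.2 CPM, a fold of 25.5 [17.8, 37.5] and 24.4 [17.8, 34.2]. HES1 differed less, at 398 and 650.3 CPM against 102 and 64.7 CPM, a fold of 3.89 [3.28, 4.61] and 10.06 [8.72, 11.6]. For the receptor NOTCH3, 27 and 48 UMIs were counted in the RERGL cluster and 0 and 3 in the other cells. HES6 ran the other way, at 19.6 and 11.3 CPM against 35.7 and 35.8 CPM, a fold of 0.55 [0.31, 0.92] and 0.31 [0.17, 0.55]. In both libraries the receptor, the ligand JAG1, HES1 and HES4 were thus higher, and HES6 lower, in the RERGL cluster. The other cells were themselves mixed, as cluster 23 (70 and 21 cells) had CYTL1, CCK and MYOC among its leading genes. When mural cells were clustered again, sub-cluster 6 (91 and 32 cells) had MYOC at 11579.5 and 19530 CPM. HES1 there was at 253 and 296 CPM and JAG1 at 58.1 and 91.0 CPM. In sub-cluster 1 (133 and 412 cells) HES1 was at 36.3 and 42.9 CPM and JAG1 at 9.40 and 12.4 CPM.

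Pericyte-like cells resembled the RERGL cluster in JAG1 and HES4. The ratio of pericyte-like cells over that cluster was 0.98 [0.86, 1.11] and 0.97 [0.88, 1.07] for JAG1, and 1.00 [0.86, 1.17] and 0.95 [0.80, 1.13] for HES4. HES1 was higher in pericyte-like cells, by 1.98-fold [1.74, 2.26] and 1.57-fold [1.42, 1.73]. HES6 was nearly absent from pericyte-like cells, with 1 UMI in each library. RERGL also led the pericyte-like cluster, so it marks both kinds of mural cell here.

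**Figure D2:**
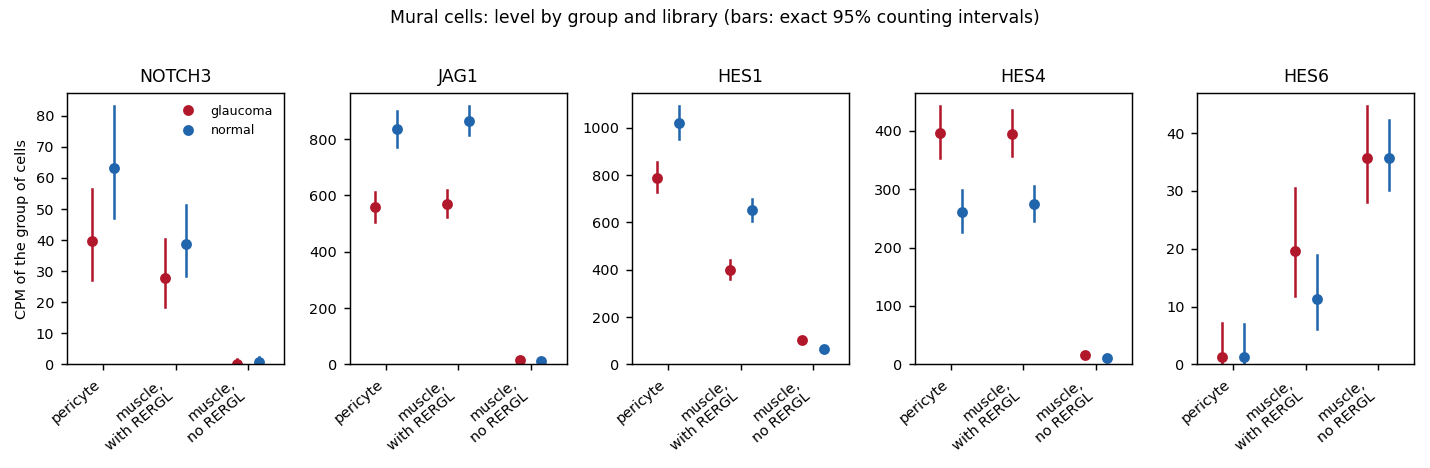
Level of 5 genes (y axis, CPM of the group) in pericyte-like cells and in muscle-like cells of clusters led by RERGL or not (x axis), for glaucoma (red) and normal (blue), with exact 95% counting intervals as bars. JAG1 and HES4 are alike in pericyte-like and RERGL-led cells and low in the other muscle-like cells (16.9 and 13.3 CPM for JAG1).

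Thinning cells of at least 1000 UMIs to that depth showed which genes met in the same cell. Of muscle-like cells with a JAG1 UMI, 26.6% [20.1, 34.0] and 22.6% [17.1, 28.9] also held HES4, against 12.0% [9.27, 15.1] and 6.27% [4.69, 8.18] of those without. HES1 was likewise found in 36.1% and 35.1% of muscle-like cells with JAG1 and in 15.7% and 15.2% of those without. The class pools the RERGL cluster with the other cells, and shares within each were not computed. In pericyte-like cells the intervals overlapped: HES4 was found in 31.2% and 29.6% of cells with JAG1 and in 32.1% and 22.9% of those without. The intervals for HEY1 in vascular endothelium-like cells overlapped too, with shares of 6.25% and 10.0% in cells with DLL4 and 5.69% and 5.13% in cells without.

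Among vascular endothelium-like cells, HEY1 and HES4 were higher in an arterial-like group. Endothelial cells were clustered again without the Notch genes. Sub-cluster 4 (105 and 82 cells) was called arterial-like from 4 of 7 measured arterial markers (GJA5, GJA4, BMX and FBLN5). SEMA3G, EFNB2 and CXCL12 did not count there, and CXCL12 counted in sub-cluster 3 instead. HEY1 was at 277 and 215 CPM there against 44.3 and 23.2 CPM in the other vascular endothelium-like cells, a fold of 6.26 [4.37, 8.97] and 9.28 [4.38, 21.4]. HES4 was at 160.3 and 208 CPM against 30.9 and 41.8 CPM, a fold of 5.19 [3.28, 8.18] and 4.97 [2.64, 9.58]. In the glaucoma library its arterial-like interval [113, 221] overlapped that of lymphatic-type sub-cluster 1, at 124 CPM [102, 149.5]. JAG1 was higher by 1.54-fold [1.28, 1.85] and 1.98-fold [1.60, 2.44]. For DLL4 the interval of the ratio included 1 in both libraries (0.91 [0.69, 1.18] and 1.32 [0.95, 1.82]), and it did for NOTCH1 (1.403 [0.42, 3.77] and 1.10 [0.48, 2.32]). HEY2, a close relative of HEY1, was among the genes leading the sub-cluster, at 186 and 169 CPM.

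HES1 in the arterial-like group was at 1023 and 492 CPM. Against other vascular cells this was 1.41-fold [1.22, 1.63] in the glaucoma library and 0.81-fold [0.61, 1.07] in the normal one. Lymphatic-type glaucoma cells held HES1 (672 CPM), JAG1 (119 CPM), DLL4 (83.0 CPM) and HES4 (89.9 CPM), but 3 HEY1 UMIs. In that library, vascular over lymphatic-type cells gave 3.73-fold [3.22, 4.34] for JAG1, 3.63-fold [3.04, 4.35] for DLL4, 0.54-fold [0.41, 0.70] for HES4 and 50.7-fold [16.96, 249] for HEY1.

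**Figure D3:**
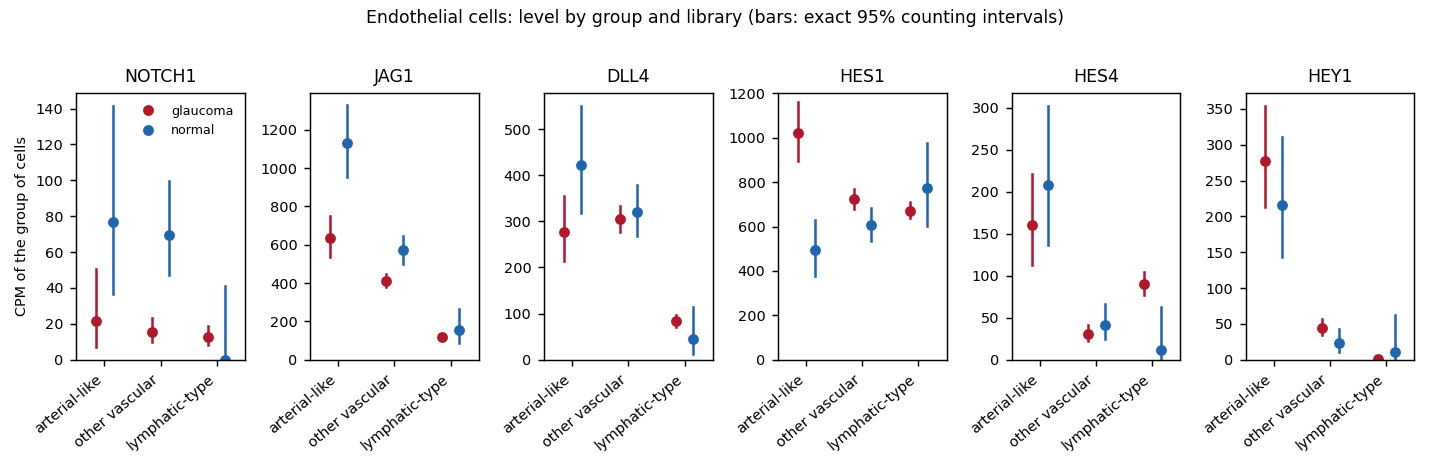
Level of 6 genes (y axis, CPM of the group) in arterial-like, other vascular and lymphatic-type endothelium-like cells (x axis), for glaucoma (red) and normal (blue), with exact 95% counting intervals as bars. HEY1 is highest in arterial-like cells (277 and 215 CPM), and the lymphatic-type normal values rest on 33 cells.

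The series also compared gene expression between glaucoma and normal tissue. Within a class, a gene was called when its CPM differed at least 2-fold and the interval of the ratio excluded 1, provided it had 100 or more UMIs across the pair of libraries. Of 81 pairs of a gene and a class, 25 had enough UMIs, spread over 6 genes (JAG1, DLL4, HES1, HES4, HES6, HEY1), and 1 was called. That was HES6 in macrophage-like cells, which was higher; 0 were called lower and 24 lay between. Of all genes tested in macrophage-like cells 8.61% were called, against 1 of the 2 Notch genes tested there. In each other class 0 of the Notch genes tested were called. The share over all genes was 7.37% in pericyte-like, 3.53% in vascular endothelium-like, 9.43% in stromal fibroblast-like and 11.1% in trabecular meshwork-like cells. Among muscle-like cells it came to 6.81% (6.52% in the RERGL cluster and 7.74% in the others), and 8.19% and 6.23% in non-myelinating and myelinating Schwann cell-like cells.

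JAG1 was lower in glaucoma cells of all 6 classes where it had enough UMIs, by less than 2-fold. The log2 ratio was -0.58 [-0.76, -0.41] in pericyte-like cells, from the 558 and 835 CPM given above, and -0.60 [-0.75, -0.45] in the RERGL cluster. In vascular endothelium-like cells it was -0.66 [-0.84, -0.48], in the stromal class -0.54 [-0.69, -0.40], and in the meshwork class -0.41 [-0.59, -0.23]. The vascular value pools groups filled unequally, as arterial-like cells, richer in JAG1, were 105 of 611 glaucoma and 82 of 295 normal cells. Within them JAG1 was at 637 [538, 749] and 1131 [955, 1329] CPM. In endothelial sub-cluster 0 (307 and 212 cells) it was at 458 [414, 506] and 573 [503, 649] CPM, where the intervals overlapped. Sub-cluster 3 (198 and 1 cells) held 358 CPM in the glaucoma library. Non-myelinating Schwann cell-like cells gave -0.90 [-1.23, -0.58], but the libraries filled its clusters unequally (780 and 195 cells in cluster 2, 92 and 380 in cluster 13). The ratio was -0.12 [-0.61, 0.39] in cluster 2 and -1.10 [-1.94, -0.35] in cluster 13, and over the alternatives it reached -0.29. Muscle-like cells gave -0.20 [-0.35, -0.06]. Outside the RERGL cluster the value was 0.35 [-0.31, 0.99], on 36 and 52 UMIs. The RERGL cluster, far richer in JAG1, made up 364 of 696 glaucoma and 402 of 1047 normal muscle-like cells, so the pooled value mixes unequal parts. The median ratio of all genes tested lay between -0.17 and -0.01 in these classes. The muscle-like value moved most with the processing, and its largest cluster, cluster 3, gave 262 and 624 cells. It was -1.26 over every deposited barcode and -0.58 with the same cluster weights in both libraries, but 0.19 under a stricter cell filter and 0.11 in thinned cells. In trabecular meshwork-like cells the thinned ratio was 0.00 [-0.45, 0.47]. With fewer UMIs (30 and 19), JAG1 in myelinating Schwann cell-like cells was at 74.2 and 35.5 CPM, the opposite direction.

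HES4 had the opposite sign to JAG1 in 4 of its 5 tested classes. The log2 ratio was 0.60 [0.34, 0.86] in pericyte-like, 0.85 [0.64, 1.05] in muscle-like, 0.45 [0.18, 0.72] in stromal fibroblast-like and 0.42 [0.04, 0.81] in trabecular meshwork-like cells. In vascular endothelium-like cells it was -0.73 [-1.27, -0.18], and -0.22 [-0.71, 0.28] over every deposited barcode. Arterial-like cells, which are richer in HES4, made up 105 of 611 glaucoma and 82 of 295 normal vascular cells, and within vascular clusters 5 and 21 the interval included 0 (-0.48 [-1.22, 0.31] and -0.35 [-1.17, 0.50]). In the RERGL cluster HES4 was at 395 and 274 CPM (0.52 [0.31, 0.74]), so there, as in the pericyte-like class, glaucoma cells held less JAG1 and more HES4 in sum. When mural cells were clustered again, the libraries filled different sub-clusters. Pericyte-type sub-cluster 2 held 498 and 41 cells and pericyte-type sub-cluster 3 held 15 and 262. Sub-cluster 0 held 201 and 384 cells and sub-cluster 5 held 152 and 29. RERGL did not tell these apart, at 3632 and 5846 CPM in sub-cluster 5 and 4129 and 5188 CPM in sub-cluster 2. PLN was at 2104 and 1752 CPM in sub-cluster 0 and 1666 and 1060 CPM in sub-cluster 5. In sub-clusters 2 and 3 PLN was at 150 and 295 CPM and at 107 and 48.6 CPM. Sub-cluster 5 also counted 4 pericyte markers. HES4 was at 516 [458, 579.5] and 272 [244, 303] CPM in sub-cluster 0 but at 219 [173, 272] and 272 [166, 419.96] CPM in sub-cluster 5, and its intervals overlapped in both pericyte-type sub-clusters (399 and 324 CPM in sub-cluster 2, 500.1 and 267 CPM in sub-cluster 3). JAG1 was at 505 and 867 CPM in sub-cluster 0, 651 and 1115 CPM in sub-cluster 5, and 556 and 928 CPM in sub-cluster 2, with intervals apart in each, but at 857 and 808 CPM in sub-cluster 3, where they overlapped. The meshwork value was 0.00 with the same cluster weights and -0.27 in thinned cells, and over every deposited barcode the muscle-like value was -0.21.

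HES1 was lower in glaucoma cells of the trabecular meshwork-like class, at 488 CPM [475, 500.4] against 961 CPM [938, 984], a log2 ratio of -0.98 [-1.03, -0.93], just short of a call. The libraries filled different clusters of this class, with 864 and 142 cells in cluster 1 but 143 and 347 in cluster 12. The ratio was furthest from 0 in cluster 1, where HES1 was at 479 and 1046 CPM (-1.13). It was -0.40 in cluster 8, -0.32 in cluster 9 and -0.23 in cluster 12. With the same cluster weights it was -0.54 [-0.60, -0.47]. Immediate early genes, which respond quickly to stress and to tissue dissociation, moved in the same class: of 17 tested, 8 were called lower and 1 higher, with a median ratio of -0.83, and EGR1 was at 567 and 2159 CPM. Their part in the HES1 result was not tested.

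In the other classes the HES1 ratio had both signs. It was -0.37 [-0.53, -0.22] in pericyte-like, -0.37 [-0.54, -0.19] in non-myelinating Schwann cell-like and -0.42 [-0.84, -0.01] in myelinating Schwann cell-like cells, where 1 normal barcode held 25.4% of the HES1 UMIs. Within the pericyte-type sub-clusters, which the libraries filled so differently, HES1 was at 804 [740.3, 871] and 707 [522, 938] CPM in sub-cluster 2 and at 750.1 [464, 1147] and 1079 [999.9, 1163] CPM in sub-cluster 3, with opposite signs and overlapping intervals. In the RERGL cluster the ratio was -0.71 [-0.89, -0.53]. The immediate early genes had median ratios of -0.50 in pericyte-like cells and -0.87 in the RERGL cluster, and their part was not tested. HES1 was higher in glaucoma vascular endothelium-like cells, at 764 and 579 CPM (0.40 [0.22, 0.58]), while the immediate early median was -0.61. It was furthest apart in vascular cluster 21 (62 and 56 cells), at 1400 [1208, 1614] and 429 [297, 599.7] CPM, against 709 and 604 CPM in cluster 5. In macrophage-like cells HES1 gave 0.72 [0.14, 1.35], with 1 barcode holding 17.9% of the normal UMIs, and in thinned cells the ratio was -0.00. In muscle-like cells outside the RERGL cluster it gave 0.66 [0.39, 0.93], but 0.03 in cluster 3 and -0.04 in cluster 23. Stromal fibroblast-like cells were at 632 and 680 CPM (-0.11 [-0.18, -0.04]), a ratio that was 0.17 with the same cluster weights.

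**Figure D4:**
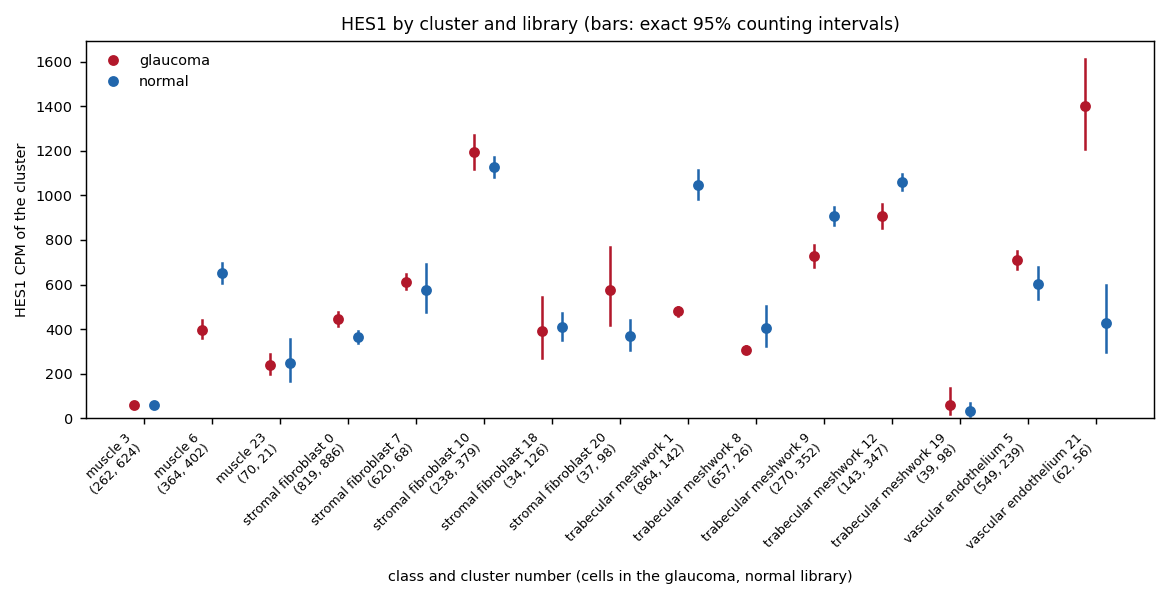
HES1 level (y axis, CPM of the cluster) by class and cluster number (x axis, with cells per library) for glaucoma (red) and normal (blue), with exact 95% counting intervals as bars. In trabecular meshwork-like cluster 1 the libraries stand at 479 and 1046 CPM, and in vascular cluster 21 at 1400 and 429 CPM.

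HES6 in macrophage-like cells was at 42.5 CPM [35.0, 51.1] and 4.27 CPM [0.88, 12.5], from 112 UMIs in 631 cells and 3 UMIs in 152 cells, a log2 ratio of 3.31 [1.73, 5.61]. A HES6 UMI was found in 14.6% and 1.97% of these cells, at median depths of 4096 and 4303.5 UMIs, against 1.57% and 0.88% of T or NK cell-like cells. The latter were shallower, at medians of 1348 and 1744 UMIs, which lowers their shares. In CPM they had HES6 at 10.6 and 4.68 (5 and 1 UMIs), so the normal macrophage-like level did not exceed this background. In both macrophage clusters the glaucoma library held more HES6 UMIs, but also more cells. Cluster 16 had 72 and 3 UMIs in 304 and 101 cells, and cluster 17 had 40 and 0 UMIs in 327 and 51 cells. No single barcode held more than 2.68% of the glaucoma UMIs. Macrophage markers summed to 11593 and 12424 CPM and cycling markers to 413 and 332 CPM, all 7 of them detected in both libraries, and the part of cycling cells in the result was not tested. HES6 in muscle-like cells gave 0.04 [-0.35, 0.41]. In trabecular meshwork-like cells it had too few UMIs for a call, at 66 and 11 (5.56 and 1.60 CPM).

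HEY1 was lower in glaucoma stromal fibroblast-like cells, at 22.5 and 42.0 CPM, a log2 ratio of -0.90 [-1.24, -0.57]. The difference lay in cluster 0, with 44 and 175 UMIs (22.3 and 78.3 CPM, -1.81 [-2.32, -1.33]), while cluster 7 had 27.1 and 25.5 CPM. The class ratio passed 2-fold under 9 of 12 processing alternatives, at values from -1.50 to -1.01. HEY1 gave 0.16 [-0.37, 0.72] in vascular endothelium-like and 0.31 [-0.08, 0.71] in trabecular meshwork-like cells, and DLL4 gave -0.19 [-0.43, 0.05] in vascular endothelium-like cells, so these intervals included 0.

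**Figure D5:**
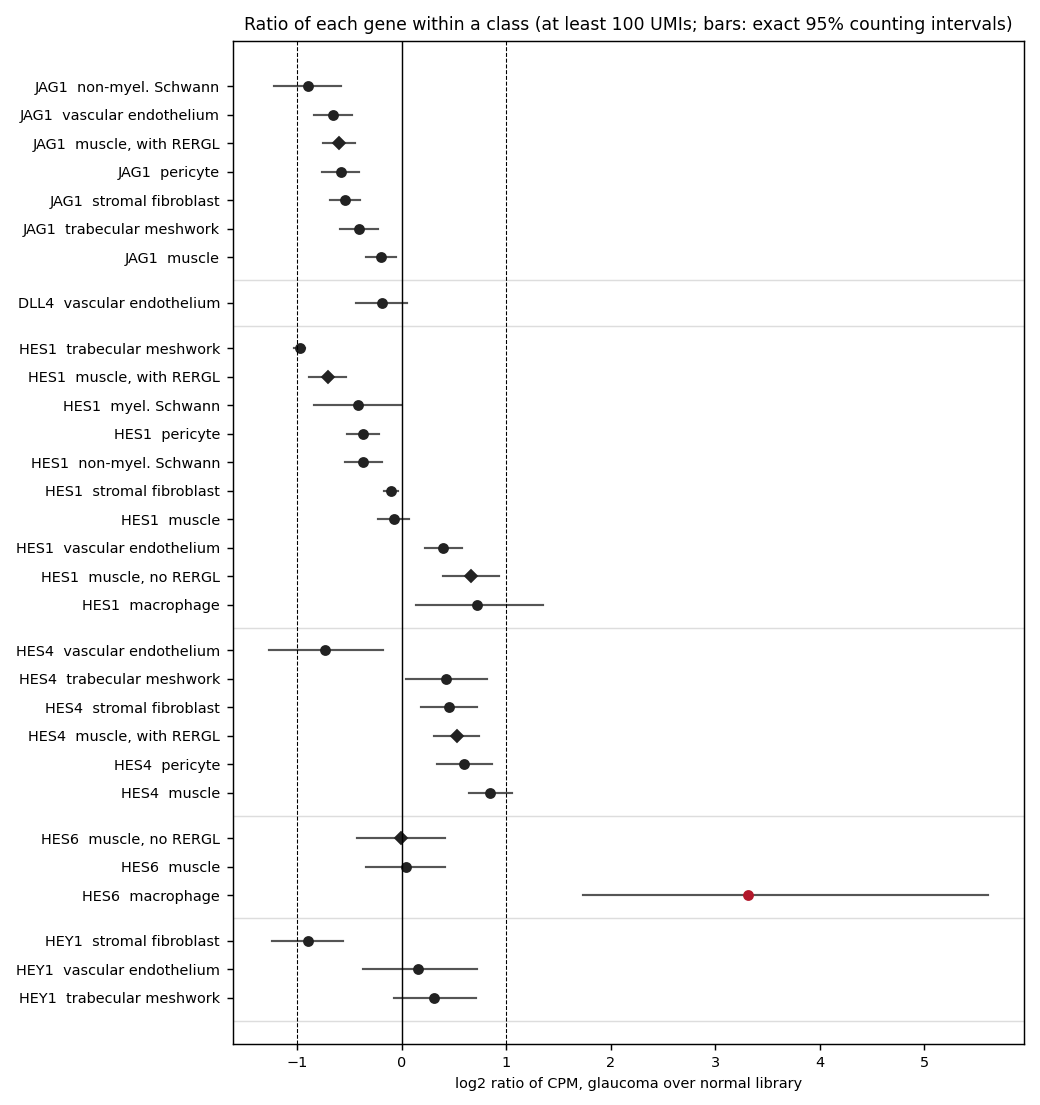
Log2 ratio of CPM, glaucoma over normal (x axis), for each gene and class with enough UMIs (y axis), with exact 95% counting intervals as bars, dashed lines at 2-fold and diamonds for the muscle-like class split by RERGL. HES6 in macrophage-like cells, at 3.31 (red), is the one called, and JAG1 lies below 0 in every class shown, although in muscle-like cells it was 0.19 under a stricter cell filter.

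Of 41 further Notch genes (other receptors and ligands, RBPJ, co-activators, the enzymes that cut the receptor, and co-repressors), 36 were measured. None was called in pericyte-like (0 of 6 tested), vascular endothelium-like (0 of 11), muscle-like (0 of 13) or trabecular meshwork-like cells (0 of 18), nor in the Schwann cell-like classes (0 of 8 and 0 of 4). The co-activator gene MAML1 was called lower in stromal fibroblast-like cells, at 14.7 and 32.9 CPM (1 of 17). SPEN, a co-repressor that binds RBPJ, was called lower in macrophage-like cells, at 52.7 and 124 CPM (1 of 7), and MAML2, another co-activator gene, in the RERGL cluster, at 39.2 and 80.5 CPM (1 of 6). Of all genes tested, 9.43% were called in stromal fibroblast-like cells, 8.61% in macrophage-like cells and 6.52% in the RERGL cluster. Single calls among so few genes cannot be told from these shares, and the shares of the other classes are given above. The median ratio of the list was -0.31 in pericyte-like, -0.19 in vascular endothelium-like and -0.16 in trabecular meshwork-like cells, against -0.02, -0.09 and -0.01 for all genes tested. RBPJ stood at 126 and 159 CPM in pericyte-like cells and, in the vascular class, at 98.8 and 94.5 CPM. HEY2 was at 130 and 216 CPM in pericyte-like cells (-0.73), the sign of JAG1 and not of HES4. CIR1, a co-repressor that binds RBPJ, was at 159 and 195 CPM in pericyte-like cells. In vascular endothelium-like cells MFNG, a sugar transferase that alters how receptors respond to ligands, was at 219.7 and 196 CPM, and SPEN at 180.1 and 266 CPM.

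Genes with a similar distribution were sought among 7551 genes over 20 profiles, each a class in a library, by Pearson's r of log2(CPM + 10). Profiles of a class in both libraries are not independent, so the coefficients are descriptions. DLL4 was most like ZNF366 (r = 0.99), ARHGEF15 (0.99) and ROBO4 (0.98). JAG1 was most like PPIP5K2, TNS2 and GNA12 (each 0.92), and HES1 like SERPINH1 (0.93), GNG12 (0.92) and RBMS3 (0.92). HES4 was most like NPY1R (0.93) and PGF (0.91), and HEY1 like ATOH8 (0.90), TCF3 (0.89) and EFNB1 (0.88). DLL4 reached 100 UMIs in 3 of the 20 profiles and HEY1 in 4, so their coefficients rest on few well-counted profiles. Among the 9 genes themselves, r was 0.81 for JAG1 with HES1, 0.79 for NOTCH3 with HES4 and 0.78 for JAG1 with HES4, but 0.28 for DLL4 with HES1. NOTCH3 reached 100 UMIs in 0 of the 20 profiles. Its r with HES4, and that of 0.82 with the sparse HEYL, thus rest on few UMIs. NOTCH1, NOTCH3, HES6 and HEYL had too few UMIs for a search of their own.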

How the data were processed

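The deposited values were counts, whole numbers of UMIs per gene and barcode, 1 matrix per library with no normalization by the authors. Per the submitters' processing notes they used Cell Ranger 4.0 and Seurat 3.0, while the file headers name Cell Ranger 6.0.0; the genome build is not given in the sources used here. Cells needed at least 500 genes and under 20% mitochondrial UMIs, and Scrublet doublet calls were removed (3.85% and 1.22%, below the 6.91% and 4.34% expected from loading). Cells were clustered with scanpy 1.11.5 (2000 variable genes, Notch pathway genes left out, 30 components, Leiden resolution 1, seed 1) in Python 3.11.15. Clusters took the class with most markers, except that a cluster with most vascular endothelium markers and at least 3 lymphatic ones was classed as lymphatic-type; a cluster stayed unnamed where an unrelated class had as many markers or its leading genes favoured another class. These rules were settled after the clusters had been seen. UMIs were summed per class and library, and ratios have exact conditional binomial 95% intervals. The ratio and call were tested on counts simulated with counting error only, as the interval assumes. Such counts hold no variation between cells or libraries, so this checked the calculation alone. The 9 genes and all lists were chosen with earlier results of these data known. Named beyond the 9 were called pathway genes, the 3 highest in mural and endothelial cells, and the 3 most similar per gene, of which 1 is not reported here. Replicates were absent, so no p-values were computed. Sums of UMIs cannot tell fewer expressing cells from less RNA per cell.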

Additional observations from a re-analysis of the deposited data

Results flagged for a closer look

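The ratio of HES1 between the libraries went opposite ways in 2 classes, with both intervals away from 0: it was 0.72 in macrophage-like and -0.98 in trabecular meshwork-like cells. HES4 did the same, at 0.85 in muscle-like and -0.73 in vascular endothelium-like cells. Both HES4 ratios pool clusters that the libraries filled unequally: HES4 gave 0.52 in the RERGL cluster and 0.46 in the other muscle-like cells, where the interval included 0, and the intervals within vascular clusters 5 and 21 included 0. With 1 library per group the difference between classes was not tested. In cells thinned to 1000 UMIs the HES1 ratio in macrophage-like cells was -0.00, and over every deposited barcode the HES4 ratio in muscle-like cells was -0.21.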

How the results depend on the processing

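No paired analysis was possible because each group had 1 library. The count of pairs called at least 2-fold apart was 1 in the reported analysis. It was 3 over every deposited barcode, 3 with Notch genes kept for clustering, 3 with the libraries clustered separately and 3 at Leiden resolution 0.5. It was 2 under the stricter filter (1000 genes, 10% mitochondrial), 2 with doublet calls kept, 2 at resolution 2, 2 with the same cluster weights and 2 in cells thinned to 1000 UMIs. Without a minimum of 100 UMIs it was 6 (at least 30 UMIs) and 8 (no minimum), where sparse pairs such as NOTCH1 in vascular endothelium-like cells enter. It stayed 1 with the class total computed without mitochondrial, haemoglobin and immediate early genes, with ratios centred on the median gene, without the barcode holding most UMIs, and, in a split chosen after seeing the data, with the muscle-like class divided by RERGL. The call for HES6 in macrophage-like cells held wherever its UMIs reached the minimum, and its ratio ranged from 3.27 to 4.62 over 11 alternatives; in thinned cells the normal library had 0 UMIs and gave no ratio. Most further calls were HEY1 in stromal fibroblast-like cells (-1.50 to -0.73 over 12 alternatives) and HES1 in trabecular meshwork-like cells (-1.12 to -0.54). JAG1 in muscle-like cells was called over every barcode (-1.26), HES4 in muscle-like cells under the stricter filter (1.11), and JAG1 in non-myelinating Schwann cell-like cells after thinning (-1.21). Thinning left out cells under 1000 UMIs, and the glaucoma non-myelinating Schwann cell-like cells had a median of 964.5 UMIs, so most of them were left out. Of the 25 ratios, 20 kept their sign under the stricter filter, 17 of 24 in thinned cells and at least 23 under every other alternative. JAG1 kept its sign in pericyte-like, vascular, stromal and non-myelinating Schwann cell-like cells under all 12, and HES1 in stromal fibroblast-like cells in only 4. The causes were not tested. Depth limits NOTCH1, NOTCH3, HEYL and most HES6 and HEY1 values.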
